A study of Mus musculus with 4 samples.

Results

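The genes described here were 8 members and relatives of the AP-1 transcription factor family, Fosb, Fosl1, Fosl2, Jund, Maff, Mafk, Batf and Atf4, in thymic epithelial cells (TECs). They were found by exact match to the symbol column of the feature lists, where all 8 matched once among 31053 genes, and their UMIs (unique molecular identifiers, 1 per captured transcript) were summed for each cell class in each library. Another 5 genes, Atf3, Fos, Junb, Egr1 and Jun, which the study had picked on these samples, are no members and appear only for comparison.

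The study asked how the loss of 2 TNF receptor family signals, RANK and CD40, alters TECs. EpCAM+CD45-TER119- cells were sorted from thymi of 6-week-old C57BL/6 mice and loaded on a droplet single-cell platform. Wild-type mice were given control IgG (WT-Control) or a neutralizing antibody to RANKL (WT-RANKL-Ab), and CD40-deficient mice were given control IgG (Cd40-/- Control) or the antibody (Cd40-/- RANKL-Ab), which made 4 groups, each sampled 2 weeks after injection. Each group was 1 library of cells pooled from 3 mice and the Cd40 deletion was present in every cell from the start of life.

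AP-1 is a dimer of basic leucine zipper proteins, built mainly from Jun and Fos family members and able to include ATF, BATF and small Maf relatives. Fos and Jun genes are classic immediate early genes, transcribed within minutes of growth factor signalling or cell stress, including the stress of tissue digestion. In the thymic medulla, RANK and CD40 drive the maturation of medullary TECs (mTECs) through NF-κB and MAP kinases, and cortical TECs (cTECs) support early thymocytes.

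The 8 genes lay on 6 chromosomes of mouse build GRCm38. The Fos family members were Fosb (chr7:19302696-19310051, minus strand), Fosl1 (chr19:5447547-5455946, plus strand) and Fosl2 (chr5:32135801-32157842, plus strand). The Jun family member was Jund (chr8:70698949-70700616, plus strand), a single-exon gene that overlaps the antisense gene Gm11175. The small Maf genes were Maff (chr15:79346621-79359076, plus strand) and Mafk (chr5:139791513-139802653, plus strand), and Batf (chr12:85686669-85709087, plus strand) and Atf4 (chr15:80255184-80257541, plus strand) completed the set. Fosl1 and Mafk overlap Ccdc85b and Tmem184a on the other strand. How the counting treated strand is not given in the sources used here, so reads of these 3 overlapping pairs may be shared.

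RefSeq promoter windows of GRCm38.p6 were at hand for 7 of the 8 members, as 9 windows, and the 250 bases before each start were searched on both strands for 7 motifs: the AP-1 site TGANTCA, the CRE TGACGTCA, the CRE variant TGACGCA, the ATF4 composite site TGATGNAA, the Maf recognition core TGCTGAC, the CArG box bound by serum response factor, and TATAA. A member held a match in 2 windows only, and these stretches are shown because Fosb had the largest ratios of any member in the Cd40-/- libraries and the Maff stretch holds the full CRE. The capitals mark the matched motif, and each stretch is read 5′ to 3′ along the gene's strand.

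Fosb, chr7:19310087-19310116, minus strand: ggagttgcgggTGACGCAagcgcgggggcg

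Maff, chr15:79347480-79347509, plus strand: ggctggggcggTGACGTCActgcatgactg

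The Fosb motif began 60 bases before the start, and TGACGCA occurred in 1.75% of all 32851 windows. The palindromic Maff motif began 29 bases before 1 of its 3 annotated starts, and TGACGTCA occurred in 1.55% of windows. Of all windows, 6.75% held TGANTCA, 3.45% TGATGNAA, 3.81% TGCTGAC, 1.47% a CArG box and 22.8% TATAA. A match describes letters in a window and is not evidence of binding.

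After filters, 10218 cells of WT-Control and 7164 of WT-RANKL-Ab were kept, beside 8591 of Cd40-/- Control, while Cd40-/- RANKL-Ab had 2082, with medians of 6086 to 7621.5 UMIs per cell. Cd40, the targeted gene, was at 110.0 CPM (UMIs of the gene per 1000000 UMIs of the cells summed) in WT-Control and 28.8 in WT-RANKL-Ab, against 5.75 in Cd40-/- Control, with 4.75 in Cd40-/- RANKL-Ab. The 2 Cd40-/- libraries shared 210 barcodes, 10.0% of the smaller library, where other pairs shared 0.858% to 1.44%. Those 210 barcodes had a median of 724 UMIs in Cd40-/- Control, where the same barcodes of Cd40-/- RANKL-Ab had 23858. They held 0.460% of the UMIs kept in Cd40-/- Control, and leaving them out of that library changed no call of a member against WT-Control (Fosb in progenitor-like cells went from 213.1 to 210.0 CPM). Cells were gated into 14 classes on markers that include no member, and 25289 of 28055 cells fell in a class. Classes are called "-like" because they rest on these markers alone. Progenitor-like cells (Pdpn, Ackr4, Dcn) were split into those with low and those with high Ccl21a, a chemokine of medullary TECs. Nurse cTEC-like cells had more thymocyte than cTEC markers among their 10 leading genes (5 against 1) and may hold doublets, so they were not compared between conditions. The Aire+ mTEC-like class had 1 of its own markers among its leading genes.

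Levels of the members are given in CPM of a class in a library. With 1 library per condition there was no test between conditions. A gene was called higher or lower when its level differed at least 1.5-fold and the exact 95% counting interval of the ratio excluded 1, provided that the compared libraries held 20 or more UMIs of it between them and the class had at least 50 cells in each. Thymocyte-like cells, which are not epithelial, were left out of the counts of calls. Intervals cover counting error only, and neither mice nor libraries.

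Fosb, a Fos protein induced rapidly by stimulation, was higher in both Cd40-/- libraries than in WT-Control in every class compared. In progenitor-like cells its level was 57.5 CPM in WT-Control and 70.9 in WT-RANKL-Ab, against 213.1 in Cd40-/- Control, with 173.8 in Cd40-/- RANKL-Ab. In cTEC-like cells it was 15.3, 18.3, 67.4 and 76.4 in the same order of libraries, which all lists of 4 values follow. Both Cd40-/- libraries were above both wild-type libraries in these classes, and the counting intervals of the genotypes did not overlap. In Ccl21a-high mTEC-like cells, the largest class compared in all 4 libraries, Fosb was at 37.1, 19.7, 86.1 and 104.9 CPM, lowest in WT-RANKL-Ab. In Ccl21a-high progenitor-like cells the levels were 25.5, 59.9, 62.2 and 147.6, so that Cd40-/- RANKL-Ab stood above the rest. Tuft-like cells, a mimetic mTEC type of chemosensory character, had 35.6, 56.7, 83.7 and 99.7.

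Against WT-Control, Fosb was called higher in Cd40-/- Control in 7 of 7 classes and in Cd40-/- RANKL-Ab in 5 of 5. The log2 ratio in Cd40-/- RANKL-Ab was 1.60 (95% counting interval 1.13 to 2.10) in progenitor-like cells, a 3.02-fold difference, and 2.53 (1.90 to 3.24) in Ccl21a-high progenitor-like cells. It was 1.5 (1.34 to 1.66) in Ccl21a-high mTEC-like, 2.32 (1.73 to 2.99) in cTEC-like and 1.49 (0.97 to 1.98) in tuft-like cells. These ratios lie between 2.80-fold and 5.79-fold. The largest comes from a class where 256 of 904 cells had scores within 0.1 above the gate limit, and stricter gates gave no ratio to WT-Control there because that library then held fewer than 50 such cells. WT-Control held only 21 Fosb UMIs in Ccl21a-high progenitor-like, 24 in cTEC-like and 43 in progenitor-like cells. The 5 cells with the most Fosb held 76.2%, 70.8% and 48.8% of these, and the counting intervals do not cover such clumping. In Ccl21a-high mTEC-like cells WT-Control held 814, with 7.13% in 5 cells. Cd40-/- Control gave log2 ratios of 1.89, 1.28, 1.22, 2.14 and 1.23 in the same classes, 1.08 in cycling TEC-like and 1.39 in Aire+ mTEC-like cells. The 2 Cd40-/- comparisons share WT-Control, so they are not independent of each other. In Ccl21a-high mTEC-like cells the summed level of 6 fibroblast markers was also higher in the Cd40-/- libraries (9.52, 5.69, 35.8 and 29.4 CPM), mostly from Col3a1 (4.60, 1.85, 24.2 and 24.0) with Pdgfra below 1 in each, and its part in the Fosb value was not tested. In progenitor-like cells the same 6 markers summed to 21.4, 28.3, 15.1 and 25.7 CPM, and their part in the Fosb value was not tested there either.

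Set against WT-RANKL-Ab, Fosb was again called higher in Cd40-/- RANKL-Ab in 5 of 5 classes, by log2 ratios from 0.81 in tuft-like to 2.42 in Ccl21a-high mTEC-like cells. Within the Cd40-/- genotype, antibody and control IgG differed past the fold for Fosb in 1 of 5 classes, Ccl21a-high progenitor-like cells, at a log2 ratio of 1.25 (0.91 to 1.60). In that class 5 of 6 members were called higher with antibody, beside 6.05% of all genes higher and 8.74% lower. They were Fosb, Fosl2 (0.86), Jund (0.61), Maff and Mafk (1.31). Cd40-/- Control held only 17 Fosl2, 11 Maff and 6 Mafk UMIs there, against 66, 47 and 32 with antibody. The 2 libraries also differed in this class in the summed level of 5 Ccl21a-high mTEC markers (25585 and 45695 CPM) and in median depth (5738 and 8134 UMIs). The part of these differences in the calls was not tested. The counts of members called higher elsewhere were 0 of 5 in progenitor-like (3.22% of all genes higher), 1 of 7 in Ccl21a-high mTEC-like (8.43%), 0 of 6 in cTEC-like (4.85%) and 1 of 7 in tuft-like cells (7.35%).

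In wild-type mice the direction of the Fosb difference with antibody varied by class. It was called lower in Ccl21a-high mTEC-like cells (log2 ratio −0.92, −1.09 to −0.75) and higher in Ccl21a-high progenitor-like (1.23, 0.54 to 1.99), Aire+ mTEC-like (0.75, 0.36 to 1.12) and tuft-like cells (0.67, 0.38 to 0.97, but 0.56 and below the fold under TMM factors, which rescale the class totals). In progenitor-like, cTEC-like and cycling TEC-like cells the ratios were 0.30, 0.26 and 0.59 and their intervals included 0. The Ccl21a-high progenitor-like value rests on few cells, because 1 WT-RANKL-Ab cell held 40 of 101 Fosb UMIs, and it was 0.36 without the 5% of cells with the most UMIs. A Cd40-/- Control progenitor-like cell likewise held 38 of 254 UMIs, and there the ratio stayed between 1.23 and 1.90 over 7 alternative settings. The WT-RANKL-Ab cells of the Aire+ mTEC-like class had a median of 3309 UMIs against 10389 in WT-Control.

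**Figure D1:**
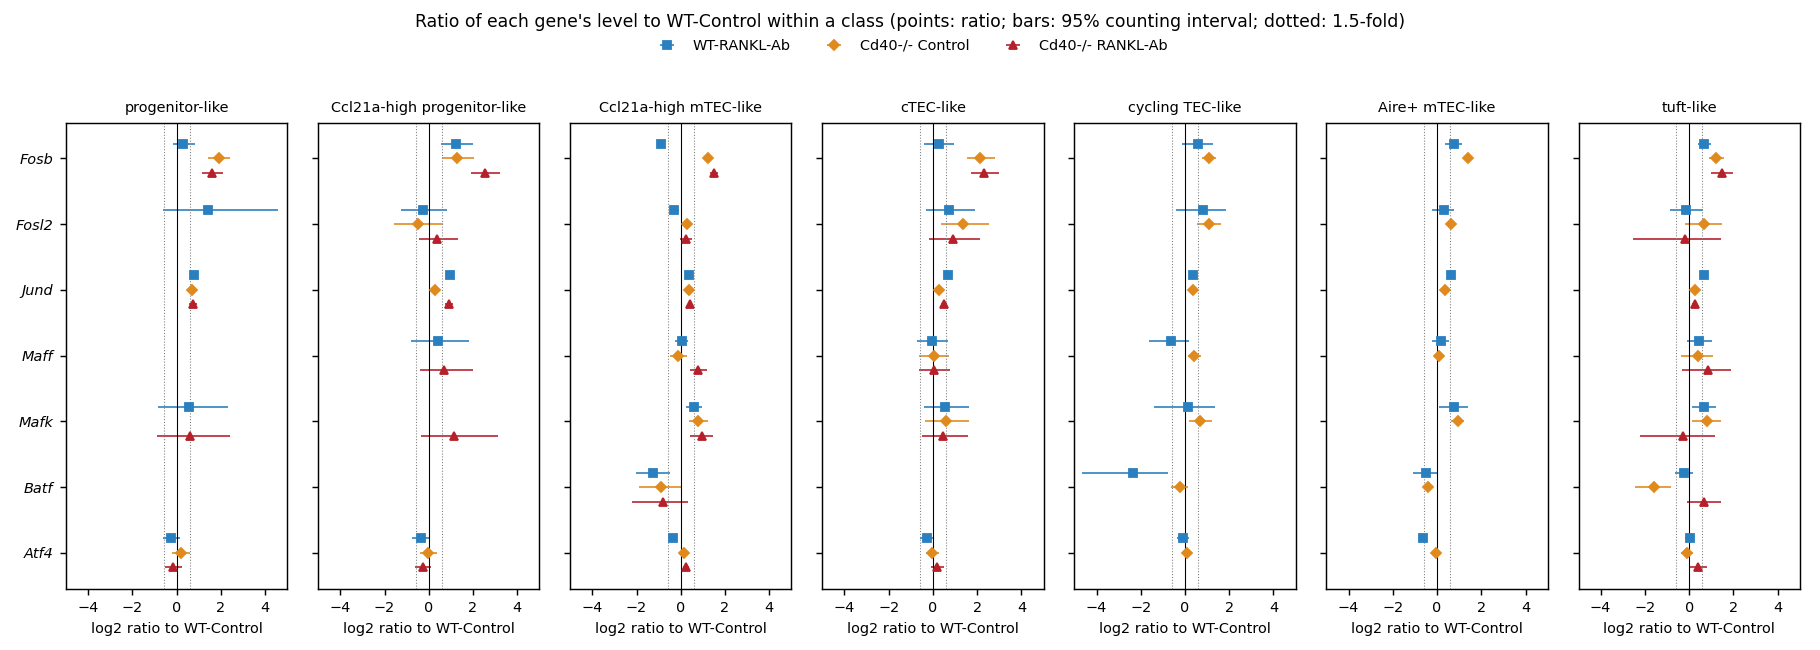
Log2 ratio of each member to WT-Control within 7 classes (x axis; bars are 95% counting intervals, dotted lines mark 1.5-fold), shown for members that reached 20 UMIs over the compared libraries. Fosb lies right of the upper dotted line at every point of the Cd40-/- libraries, while Atf4 stays near 0 in most panels. Cd40-/- RANKL-Ab has no points for cycling TEC-like and Aire+ mTEC-like cells, of which it held 10 and 2.

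The share of cells with a Fosb UMI was examined at equal depth. After every cell was thinned to 1000 UMIs, Fosb was seen in 3.65% (Clopper-Pearson 95% interval 3.01 to 4.37), 1.99% (1.54 to 2.54), 8.41% (7.10 to 9.87) and 8.46% (6.45 to 10.8) of Ccl21a-high mTEC-like cells, with 128, 83, 84 and 6 shallower cells left out. Unthinned shares were 13.7%, 7.77%, 21.9% and 27.7%. These shares were lower in both wild-type libraries than in both Cd40-/- libraries. In cTEC-like cells the thinned shares were 0% (0 of 141 cells, an interval up to 2.58%), 0.782%, 4.09% and 4.30%, with 15, 20, 88 and 25 cells left out. Thymocyte-like cells, whose Fosb level was 9.30 to 12.6 CPM, gave thinned shares of 1.56%, 2.06%, 2.09% and 0%. The wild-type cTEC-like shares lay within the range of these, with overlapping intervals, and were not told apart from background of free RNA. The cTEC-like ratios to WT-Control given above were not corrected for it, and if WT-Control was at background they are lower bounds. The Ccl21a-high mTEC-like shares in the Cd40-/- libraries were above it, at median depths of 5573 and 7355 UMIs per cell against 1397 and 1624.5 in thymocyte-like cells. For progenitor-like cells the thinned shares were 3.88%, 6.58%, 7.27% and 13.4%, and the intervals of the lowest and the highest (1.07 to 9.65 and 8.84 to 19.1) overlapped.

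Fosl2, a Fos family protein without a transactivation domain of the Fos kind, had its highest levels in 4 mimetic classes, the keratinocyte-like, microfold-like, neuroendocrine-like and enterohepatic-like cells. Its level was 66.5 CPM in WT-Control and 78.7 in Cd40-/- Control keratinocyte-like cells, and in microfold-like cells 36.5, 54.6 and 67.2, with too few Cd40-/- RANKL-Ab cells. At the other end, progenitor-like cells had 2.67 to 8.39 CPM over the 4 libraries and cycling TEC-like cells 4.10 to 8.68, and the mimetic tuft-like class, with 6.80 to 12.4, ranked 11 of 13. Fosl2 was called higher in Cd40-/- Control than in WT-Control in 3 of 6 classes with enough UMIs, at log2 ratios of 1.34 in cTEC-like (5.72 against 14.5), 1.08 in cycling TEC-like and 0.61 in Aire+ mTEC-like cells. In Cd40-/- RANKL-Ab it was called in 0 of 4. Thymocyte-like cells had 5.58, 23.7, 20.7 and 6.60 CPM.

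Fosl1, the other Fos-related gene, was barely detected. It had 106 UMIs in all kept cells, was at 0 in 24 of 43 class sums of at least 50 cells, and reached at most 2.86 CPM, in Cd40-/- Control keratinocyte-like cells. In the Cd40-/- RANKL-Ab comparison no class had enough UMIs to be tested. For the sum of 0 in progenitor-like WT-Control cells, a floor of 3 UMIs corresponds to 4.01 CPM.

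Jund, the Jun family member that is expressed in most cells without stimulation, was found in every class and library, from 330.7 CPM in WT-Control cTEC-like to 2236 in WT-RANKL-Ab tuft-like cells. Tuft-like cells had 1387, 2236, 1657 and 1650 CPM, above the next class, neuroendocrine-like, in both libraries that could be compared. Progenitor-like cells had 417.1, 714.1, 672.0 and 692.7, and cTEC-like cells, lowest of 13 classes, had 330.7, 531.6, 399.3 and 467.4. WT-Control was the lowest library in all 7 classes compared.

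Jund was called higher than in WT-Control in 5 of 7 classes of WT-RANKL-Ab, in 1 of 7 of Cd40-/- Control, and for Cd40-/- RANKL-Ab in 2 of 5. The difference between these counts was not tested. The Cd40-/- Control call, 0.69 in progenitor-like cells, ranged from 0.45 to 0.73 over 7 alternative settings and was lost under TMM factors and without the deepest 5% of cells. The WT-RANKL-Ab log2 ratios were 0.78 in progenitor-like, 0.94 in Ccl21a-high progenitor-like, 0.68 in cTEC-like, 0.61 in Aire+ mTEC-like and 0.69 in tuft-like cells. They were 0.55 and 0.57 in cTEC-like and tuft-like cells under TMM factors, below the fold, and 0.58 in Aire+ mTEC-like cells of at least 2000 UMIs. Cd40-/- RANKL-Ab gave 0.73 and 0.90 in the 2 progenitor-like classes, and with WT-RANKL-Ab as the reference Jund was called in 0 of 5 classes (log2 ratios −0.44 to 0.01).

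**Figure D2:**
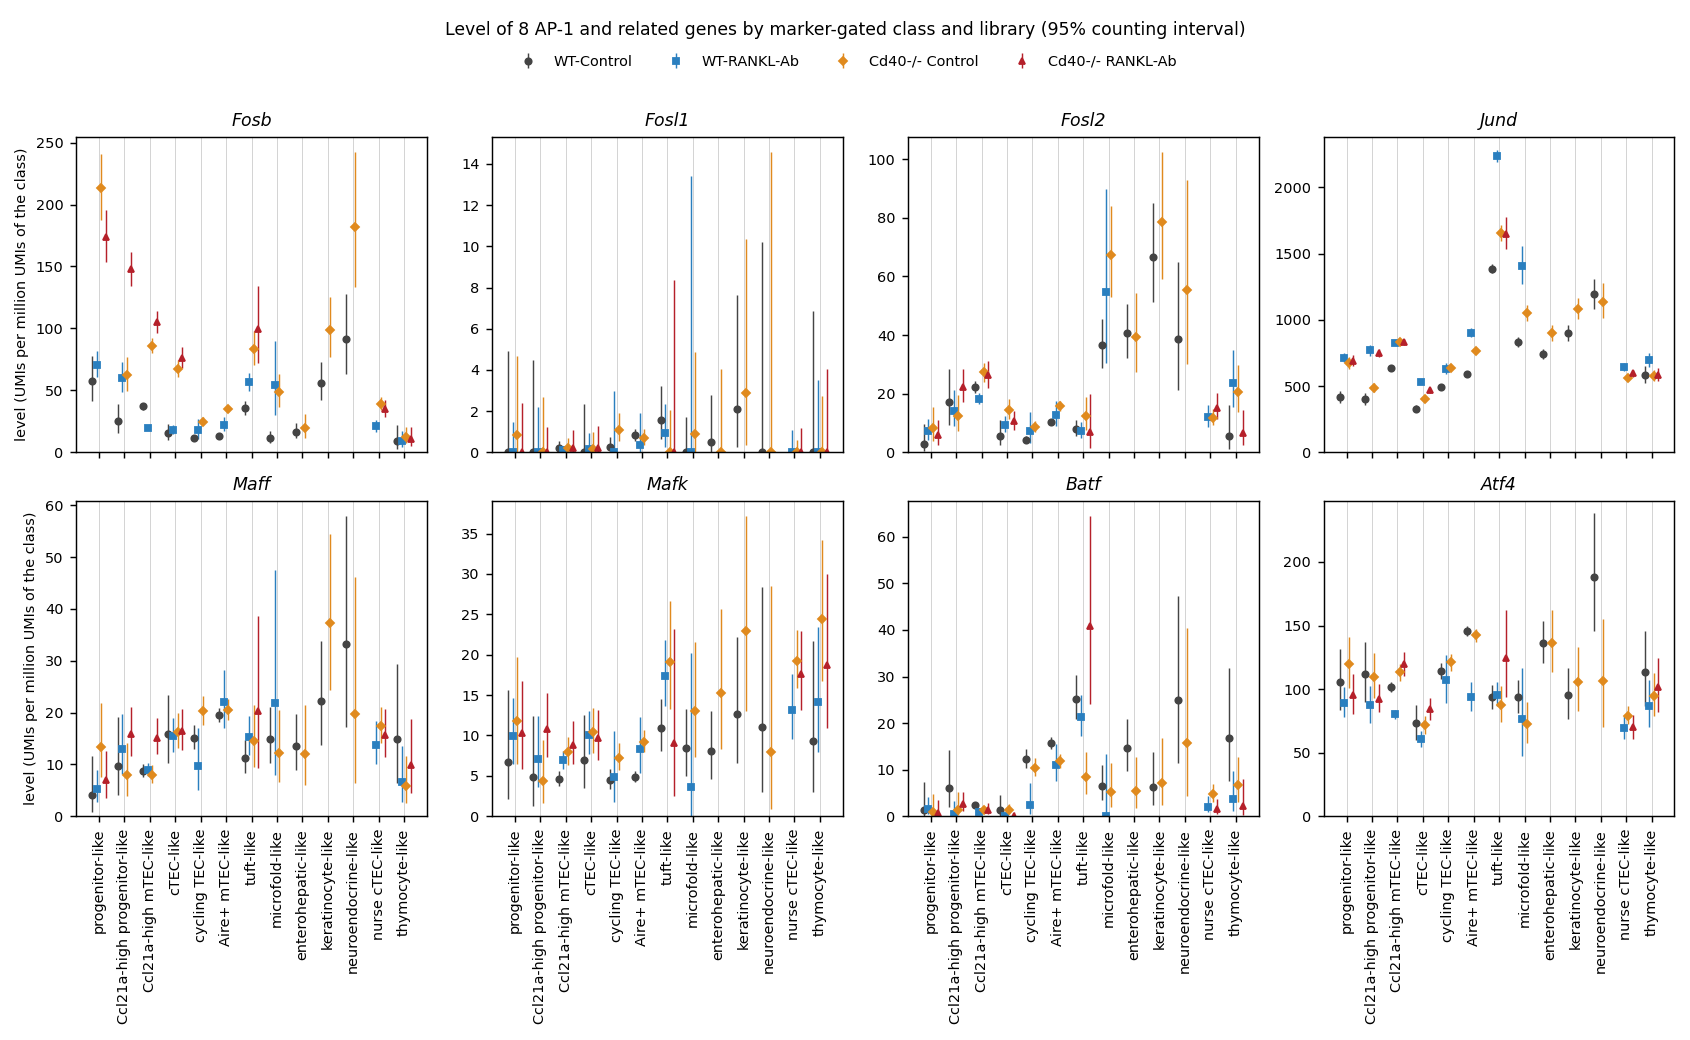
Level of the 8 members (y axis, CPM, with a separate scale for each gene) in 13 classes, by library, with exact Poisson 95% intervals and classes of at least 50 cells. Fosb is highest in Cd40-/- Control progenitor-like cells, Jund in tuft-like, Fosl2 in keratinocyte-like and Batf in tuft-like cells.

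The small Maf genes Maff and Mafk encode partners that bind DNA without activating it alone. Maff was called against WT-Control once, in Cd40-/- RANKL-Ab Ccl21a-high mTEC-like cells, where the levels were 8.74, 8.90, 8.04 and 15.2 CPM (log2 ratio 0.79, 0.40 to 1.18). Its levels were closest in cTEC-like cells, at 15.9, 15.4, 16.3 and 16.4, and ranged more widely elsewhere, from 4.01 to 13.4 in progenitor-like, 7.95 to 15.8 in Ccl21a-high progenitor-like and 9.71 to 20.3 in cycling TEC-like cells. Against Cd40-/- Control, Maff was called higher in Cd40-/- RANKL-Ab in 2 of 5 classes, Ccl21a-high progenitor-like (log2 ratio 0.99, 0.03 to 2.09) and Ccl21a-high mTEC-like cells (0.92, 0.45 to 1.38). Mafk was at 4.60, 6.91, 7.94 and 8.83 CPM in Ccl21a-high mTEC-like cells, with WT-Control the lowest, and all 3 other libraries were called higher there (log2 ratios 0.59, 0.79 and 0.94), the first no longer under TMM factors or in cells of at least 2000 UMIs. It was called higher in Cd40-/- Control in 4 of 5 classes with enough UMIs, in WT-RANKL-Ab in 3 of 6, and in Cd40-/- RANKL-Ab in 1 of 5.

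Batf, which pairs with Jun proteins in lymphocytes, was highest in tuft-like cells and lowest in cTEC-like cells by the median over libraries. The next class, neuroendocrine-like, had 15.8 to 24.9 CPM, and tuft-like cells were above it in only 1 of 2 libraries that could be compared. Tuft-like cells had 25.3, 21.3, 8.43 and 40.8 CPM in the 4 libraries, the last from 62 cells, and Aire+ mTEC-like cells had 15.7, 11.0 and 11.8 in the 3 libraries with enough cells. cTEC-like and progenitor-like cells were at 0 to 1.59. In tuft-like cells of Cd40-/- RANKL-Ab, with 18 Batf UMIs, Batf was called higher than in Cd40-/- Control (log2 ratio 2.28) and than in WT-RANKL-Ab (0.94). Each Batf call against WT-Control was lower: −2.34 in WT-RANKL-Ab cycling TEC-like (12.3 to 2.43), −1.25 in WT-RANKL-Ab Ccl21a-high mTEC-like and −1.58 in Cd40-/- Control tuft-like cells. These calls rest on few Batf UMIs in the lower library, 3 (in 2 of 138 cells), 22 and 15. Cycling TEC-like cells of WT-RANKL-Ab also had a smaller summed level of Aire+ mTEC markers, 1929 CPM for 6 genes against 5486 in WT-Control, with larger sums of 5 Ccl21a-high mTEC markers (13532 against 2929) and of 8 cTEC markers (2469 against 995.6). Their median depth was 7682 UMIs against 16983. The part of these differences in the Batf value was not tested.

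Atf4, the main effector of the integrated stress response, differed little. Its levels were 60.6 to 145.7 CPM in the 7 classes compared, and in progenitor-like cells they were 105.6, 89.2, 120.0 and 95.3. It was called once in 19 comparisons with WT-Control, lower in WT-RANKL-Ab Aire+ mTEC-like cells, at 93.7 against 145.7 (log2 ratio −0.64, −0.82 to −0.46), where depth also differed as given above. No class of either Cd40-/- library passed the fold for Atf4.

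In Cd40-/- RANKL-Ab against WT-Control, 2 of 4 members with enough UMIs were called higher in progenitor-like cells (Fosb and Jund), where 7.51% of all genes tested were higher and 3.28% lower. In Ccl21a-high progenitor-like cells 2 of 6 were higher (Fosb and Jund), against 9.37% higher and 4.60% lower of all genes. In Ccl21a-high mTEC-like cells 3 of 7 were higher (Fosb, Maff and Mafk), with 14.9% and 11.7% of all genes higher and lower. Fosb alone was called in cTEC-like cells (1 of 6; 12.7% and 4.71% of all genes) and in tuft-like cells (1 of 7; 10.5% and 7.54%). No member was called lower in these 5 comparisons, and outside Fosb and Jund the calls were 2, Maff and Mafk in 1 class.

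In WT-RANKL-Ab, 1 of 5 members was called in progenitor-like cells (8.41% of all genes in either direction), 2 of 5 in Ccl21a-high progenitor-like (12.4%), 3 of 7 in Ccl21a-high mTEC-like (19.3%), 1 of 6 in cTEC-like (13.8%), 1 of 7 in cycling TEC-like (33.3%), 4 of 8 in Aire+ mTEC-like (26.0%) and 3 of 7 in tuft-like cells (19.9%). In Cd40-/- Control the counts were 2 of 3 (22.3%), 1 of 4 (19.4%), 2 of 7 (25.5%), 2 of 6 (25%), 3 of 7 (21.4%), 3 of 8 (22.7%) and 3 of 7 (21.7%) in the same order of classes. All genes leaned higher in Cd40-/- Control, with 14.3% to 18.7% higher and 4.87% to 7.59% lower over these 7 classes. The member calls there were also higher, except Batf in tuft-like cells. With 3 to 8 members per comparison, each of these member counts rests on 1 to 4 genes. Under TMM factors 0 of the tuft-like WT-RANKL-Ab members were higher. The median log2 ratio of all genes to WT-Control was between −0.11 and 0.22 in these 19 comparisons.

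Beside the members, 5 of the 5 genes the study picked were called higher in Cd40-/- RANKL-Ab in progenitor-like, Ccl21a-high progenitor-like and cTEC-like cells, and 2 of 5 in Ccl21a-high mTEC-like and tuft-like cells. In progenitor-like, Ccl21a-high progenitor-like, Ccl21a-high mTEC-like, cTEC-like and tuft-like cells, Cd40-/- Control had 5, 3, 2, 3 and 1 of these 5 called higher. WT-RANKL-Ab had 3, 4, 0, 2 and 2, with 1 lower in Ccl21a-high mTEC-like cells. As the study chose these genes on these samples, their count is not independent evidence of a direction. Their median log2 ratio in Cd40-/- RANKL-Ab was 1.51 in progenitor-like cells, where Fosb was at 1.60, and 0.52 in Ccl21a-high mTEC-like cells, where Fosb was at 1.5. Immediate early genes outside AP-1, a list chosen for this description, had 13 of 19 called higher and 0 lower in Cd40-/- RANKL-Ab progenitor-like cells (median 1.14 against 0.10 for all genes), 12 of 22 and 0 in Ccl21a-high progenitor-like (0.90), 10 of 25 and 1 lower in Ccl21a-high mTEC-like (0.51), 13 of 21 and 0 in cTEC-like (0.89) and 9 of 23 and 2 lower in tuft-like cells (0.51). In the same order Cd40-/- Control had 12 of 20, 9 of 20, 11 of 26, 9 of 22 and 5 of 24 higher, with 0, 2, 0, 1 and 0 lower. The WT-RANKL-Ab counts were 3 of 19, 8 of 20, 2 of 26, 3 of 20 and 11 of 24 higher, with 0, 2, 6, 1 and 3 lower. Those with the largest ratios in Cd40-/- RANKL-Ab progenitor-like cells were Dusp1, a MAP kinase phosphatase (28.1 to 118.5 CPM), Nfkbiz, an NF-κB cofactor (12.0 to 45.1), the mRNA decay factor Zfp36 (109.6 to 374.7) and Ier2 (207.2 to 675.4).

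Heat shock genes, which respond to protein stress and to tissue handling, were called higher for 3 of 10 in progenitor-like, 4 of 10 in Ccl21a-high progenitor-like (1 lower), 2 of 10 in Ccl21a-high mTEC-like and 4 of 10 in cTEC-like cells of Cd40-/- RANKL-Ab, and for 0 of 10 in tuft-like cells (4 lower). The inducible Hsp70 genes Hspa1b (21.4 to 99.8 CPM in progenitor-like cells) and Hspa1a (291.4 to 722.4) and the cochaperone Dnajb1 (68.2 to 166.7) made up the 3 in progenitor-like cells. In the same 5 classes and order, Cd40-/- Control had 4, 2, 1, 4 and 0 of 10 higher, with 0, 2, 1, 1 and 1 lower. WT-RANKL-Ab had 4, 3, 0, 2 and 0 higher, with 0, 1, 0, 0 and 0 lower. The part of heat shock genes in the Fosb values was not tested.

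ATF4 target genes, mostly of amino acid supply, had medians below that of all genes in Cd40-/- RANKL-Ab, with 1 of 20 higher and 1 lower in progenitor-like (median 0.02), 2 and 1 of 24 in Ccl21a-high progenitor-like (−0.10), 4 and 3 of 26 in Ccl21a-high mTEC-like (−0.05), 1 and 2 of 24 in cTEC-like (−0.12) and 2 and 6 of 23 in tuft-like cells (−0.23 against 0.05 for all genes). In the same classes and order, genes partnering small Maf proteins and antioxidant targets gave 1 and 1 of 13, 2 and 2 of 15, 3 and 0 of 15, 2 and 0 of 14 and 1 and 1 of 15 (medians 0.06, −0.13, 0.05, 0.18 and −0.07). Other AP-1 and leucine zipper genes gave 4 and 4 of 29, 8 and 2 of 29, 10 and 3 of 33, 4 and 1 of 28 and 5 and 2 of 30 (medians 0.19, 0.43, 0.38, 0.18 and 0.17), with Cebpd, an acute-phase factor, higher in progenitor-like cells (69.5 to 143.6 CPM). MAPK feedback and AP-1 target genes gave 4 and 1 of 10, 1 and 2 of 11, 3 and 5 of 16, 4 and 1 of 12 and 1 and 4 of 11 (medians 0.77, 0.07, −0.04, 0.71 and −0.39), and the feedback inhibitor Spry2 went from 52.1 to 106.9 CPM in progenitor-like cells while the protease inhibitor Timp1 went from 26.7 to 4.51.

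**Figure D3:**
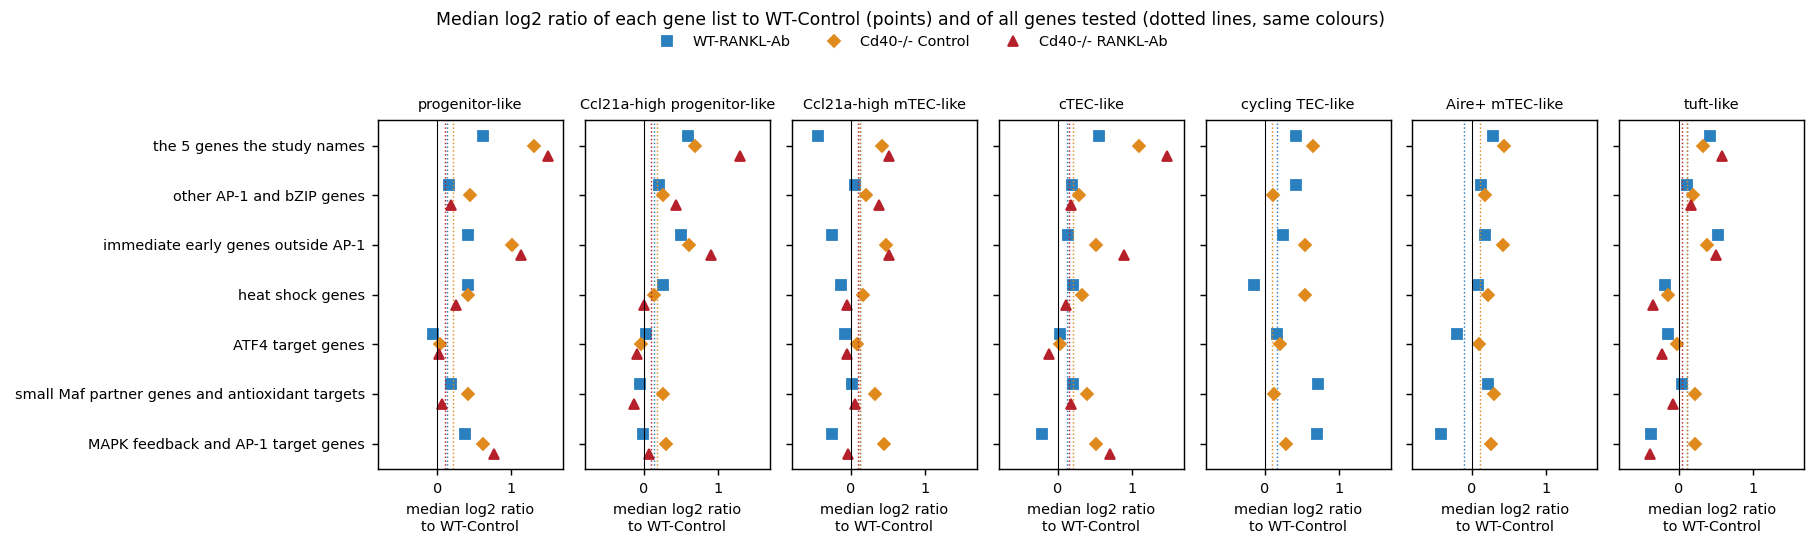
Median log2 ratio to WT-Control of 7 gene lists (points, by library) and of all genes tested (dotted lines) within 7 classes. The 5 study genes and the immediate early genes outside AP-1 lie to the right in both Cd40-/- libraries of the progenitor-like and cTEC-like classes, and ATF4 targets lie near the line of all genes or left of it in these panels.

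Within a class, Fosb was higher in cells with more UMIs of the 5 genes. Cells were ordered by the UMIs of Atf3, Fos, Junb, Egr1 and Jun together among 1000 thinned UMIs. In Ccl21a-high mTEC-like cells with 0 or 1 such UMI, Fosb was at 5.43, 3.79, 13.9 and 13.1 CPM, and in cells with 5 or more it was at 162.8, 120.4, 263.2 and 295.4. In both groups of cells the Cd40-/- libraries had the higher Fosb. Cells with 5 or more made up 18.1%, 12.1%, 25.1% and 26.0% of the class. In progenitor-like cells the share was 16.5%, 19.5%, 24.1% and 38.5%, and Fosb in those cells was at 215.6, 288.3, 562.5 and 356.6.

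Jund was also higher in such cells, from 392.3, 555.2, 445.2 and 471.4 CPM in Ccl21a-high mTEC-like cells with 0 or 1 to 1404, 2066, 1665 and 1542 in those with 5 or more. At each of these levels of the 5 genes WT-RANKL-Ab had the highest Jund. Atf4 had 88.3, 74.3, 100.5 and 102.8 at the low end and 142.5, 115.9, 133.3 and 158.2 at the high end. Cells of 1 library share their source, and a cell's depth and RNA content enter every gene, so these values are a description.

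**Figure D4:**
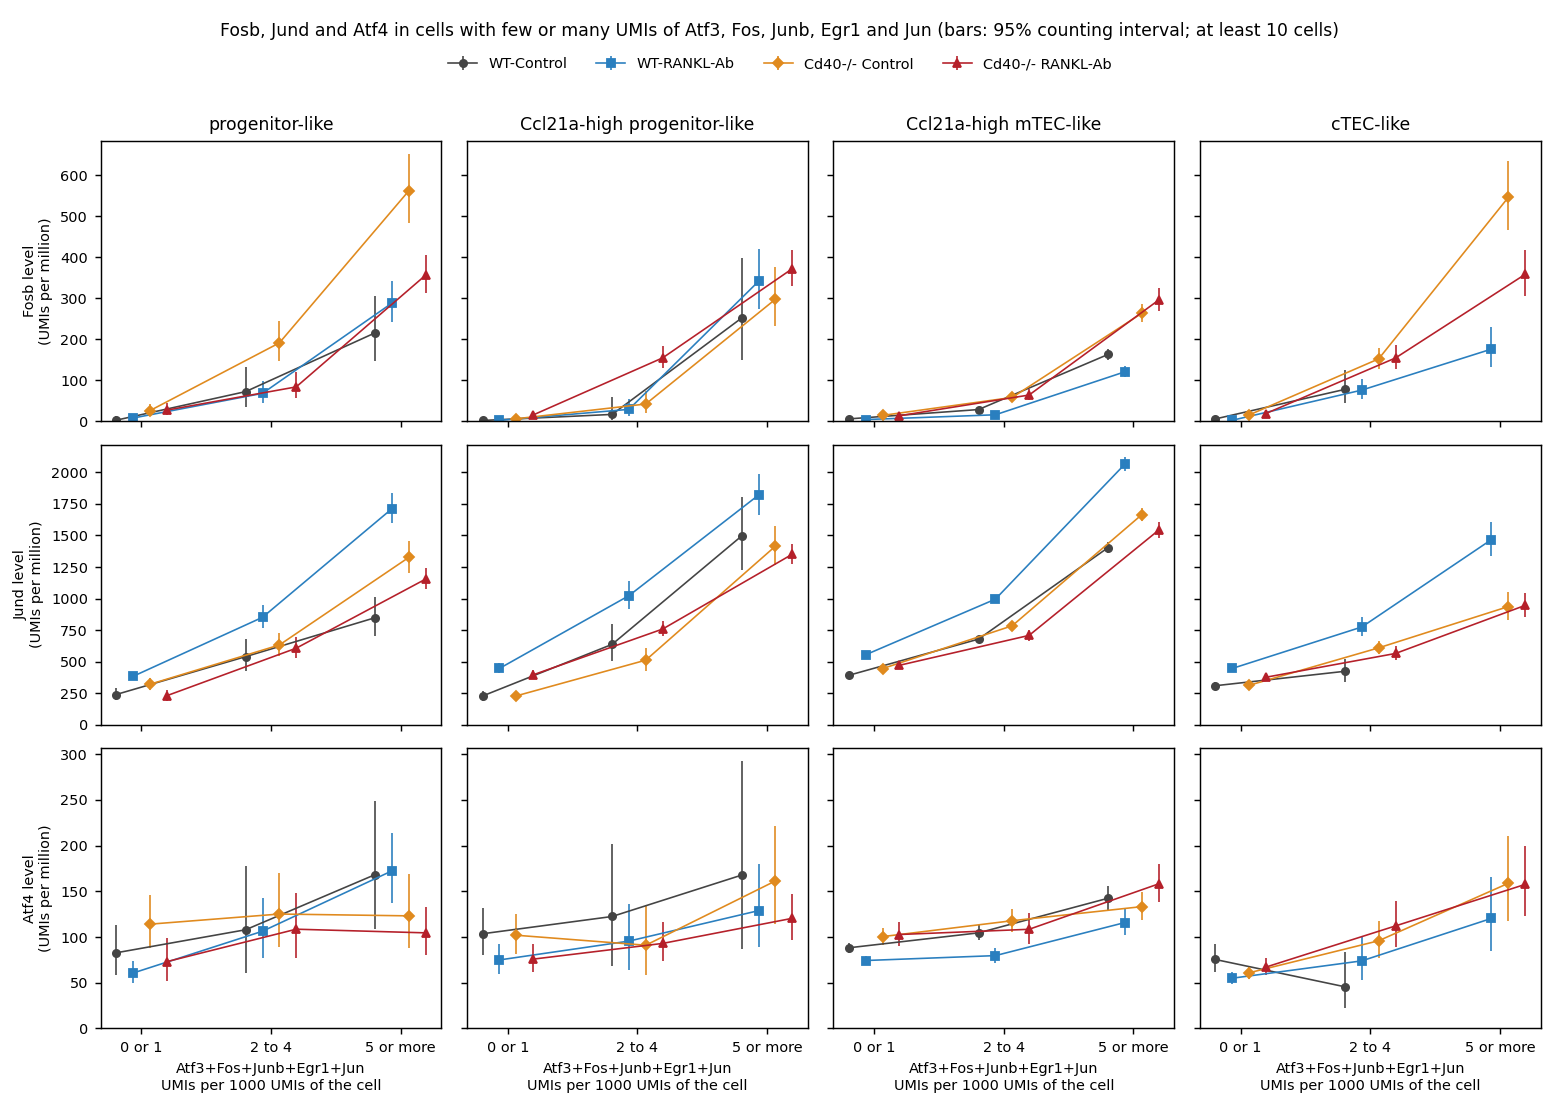
Level of Fosb, Jund and Atf4 (y axes, CPM) in cells grouped by UMIs of Atf3, Fos, Junb, Egr1 and Jun per 1000 UMIs (x axis), by class and library, with 95% counting intervals and groups of at least 10 cells. Fosb and Jund climb across the groups in every library, and the Jund points of WT-RANKL-Ab lie highest.

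The genes whose levels were most like those of Fosb over 46 class and library sums were Fos (Pearson r = 0.89), Atf3 (0.87) and Egr1 (0.87), out of 8029 candidates, on log2(CPM + 10). Among the members, Fosb correlated with Jund at 0.46 and with Atf4 at 0.25. Jund was most like Elf3 (0.84), Sptlc2 and Efhd2 (0.83 each), and Fosl2 most like Trib1 (0.86), Gm33782 (0.85) and Fam84a (0.81). Atf4 was most like Snx1 (0.68). The other closest genes were Atp4a for Batf (0.85), Arrdc3 for Mafk (0.81), Dusp16 for Maff (0.76) and Cnfn for Fosl1 (0.85), but these 4 members stayed below 50 CPM in every sum, so that the 10 CPM added weighs on their values. The Fosl1 value rests on differences smaller than that constant. The sums share libraries and depth, the classes differ widely, and these correlations are descriptions.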

How the data were processed

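Single TECs were captured by a droplet method, and gene by barcode counts were deposited by the authors as 1 filtered matrix per library, made with Cell Ranger (5.0.1 in the matrix header, 5.1 in the submitters' notes). The labels and the methods name different kit versions.

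From the deposited counts, 28055 cells passed the filters of no fewer than 200 genes and no more than 25% mitochondrial UMIs, and 14 classes were gated on 18 marker panels. The gate limits were set after the score distributions were seen, 2442 cells were left unassigned, and no doublet caller was run. The members and lists were chosen with earlier results of these data known. UMIs were summed by class and library and scaled to 1000000 UMIs (CPM), with exact Poisson intervals, exact conditional binomial intervals for ratios and Clopper-Pearson intervals for shares, all at 95%. PCR copies were collapsed by UMI, but UMIs clump within cells, so intervals cover counting error only. For a zero count, 3 UMIs was taken as the floor, which is lower than the upper end of the exact Poisson interval. Gene lists use log2 ratios with 1 CPM added. All members were named, with at most 4 genes per list by size of ratio, and the 3 most alike genes for each member. Alternatives were a 13% mitochondrial limit, other totals, means over cells, deeper cells, removal of the deepest cells, stricter gates, other minimum UMIs and TMM factors (edgeR 4.0.16, R 4.3.3). Scripts ran in Python 3.11.15 with numpy 2.4.6, scipy 1.17.1 and pandas 2.3.3 and were tested on simulated data. Columns holding other samples' values numbered 0.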

Additional observations from a re-analysis of the deposited data

Results flagged for a closer look

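Fosb in Ccl21a-high mTEC-like cells was set apart because, in summed levels, the antibody went with opposite directions in the 2 genotypes. The log2 ratio with antibody over control IgG was −0.92 in wild-type mice, from 37.1 to 19.7 CPM (UMIs per 1000000), and 0.29 in Cd40-/- mice, from 86.1 to 104.9. The difference between the 2 ratios was not tested, since each condition had 1 library.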

How the results depend on the processing

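Of 540 recomputed values behind the main results, 511 were counted as unchanged and 29 as changed, and no called ratio changed sign. A changed value did not always cross the 1.5-fold limit, and several ratios of means over cells given below stayed past it. Being counted as unchanged does not show that every call was kept. Outside these 540 values, differences in the Fosb share of cells between Cd40-/- RANKL-Ab and WT-Control were recomputed without thinning and at 2000 UMIs. Of these, 7 moved and 3 did not. Without the 5% of cells with the most UMIs, Fosb in WT-RANKL-Ab Ccl21a-high progenitor-like cells went from 1.23 to 0.36, and the uncalled ratio in cTEC-like cells from 0.26 to −0.22. Stricter gates left too few WT-Control cells for any ratio to it in Ccl21a-high progenitor-like cells. TMM factors took Jund to 0.55 in cTEC-like and 0.57 in tuft-like cells and Fosb to 0.56 in tuft-like cells, all WT-RANKL-Ab. Cells of at least 2000 UMIs gave 0.58 for Jund in Aire+ mTEC-like cells, and stricter gates gave 0.76 for Fosb in WT-RANKL-Ab cycling TEC-like cells. Means over cells, which have no counting interval and so give no call, moved Fosb in Ccl21a-high mTEC-like cells to 0.96 (Cd40-/- RANKL-Ab) and 0.97 (Cd40-/- Control), in cycling TEC-like cells to 0.74 and in tuft-like cells to 1.58 (Cd40-/- Control), and in Aire+ mTEC-like cells to 1.15 (WT-RANKL-Ab), and Jund in WT-RANKL-Ab cycling TEC-like and Aire+ mTEC-like cells to 0.64 and 0.73. Why was not tested.

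Among the changed values, counts of members moved by 1 to 3. Members higher in Cd40-/- Control progenitor-like cells went from 2 to 1 without the deepest 5% and under TMM, and in tuft-like cells from 2 to 1 with the 13% mitochondrial limit, under TMM and with a minimum of 100 UMIs. In cTEC-like cells the count went from 2 to 1 with that minimum, and 1 member was lower in Ccl21a-high mTEC-like cells under TMM against 0. In WT-RANKL-Ab, TMM took members higher from 3 to 0 in tuft-like, 1 to 0 in cTEC-like and 1 to 0 in Ccl21a-high mTEC-like cells (also 0 at 2000 UMIs), and members lower from 1 to 2 in cycling TEC-like cells. Ccl21a-high progenitor-like cells went from 2 to 1 higher without the deepest 5%, and from 0 to 1 lower with no minimum. Ccl21a-high mTEC-like cells went from 2 to 1 lower with 100 UMIs, and cycling TEC-like cells from 0 to 1 higher with stricter gates. Leaving out the barcodes shared by the 2 Cd40-/- libraries was chosen after seeing the data and changed no call of a member. Fosl1, with 106 UMIs, and classes of few cells are limited by depth. No paired analysis was possible because each condition had 1 library.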
